A study of Mus musculus with 8 samples.

Results

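Levels of 7 genes of the vascular endothelial growth factor (VEGF) system were followed in mouse pancreatic ductal adenocarcinoma (PDAC) cells in which *Smad4* was switched off or on and TGFβ signaling was blocked or stimulated. The genes were the ligands *Vegfa*, *Vegfb*, *Vegfc* and *Pgf*, the coreceptors *Nrp1* and *Nrp2*, and *Ccbe1*, a cofactor of VEGF-C. They were taken by gene name, 7 of the 53465 genes counted, and they were chosen with their levels in these 8 libraries known. All 7 passed the filter on low counts, as did 14301 genes in all. Their fold changes are therefore given as a description, with standard errors and no p-values. The cells were 2 lines, B73 and B87, each grown from the primary tumor of 1 mouse. These mice carry a doxycycline (Dox)-inducible short hairpin RNA against *Smad4*, restricted to the pancreas, so every group shares that allele, and the lines had been passaged to clear other cell types. Cells under continuous Dox were Smad4 off, and cells kept without Dox for 5 days were Smad4 on. Each state then received 24 h of either 100 pM recombinant TGFβ1 or 2.5 µM SB505124, so that no group was left untreated. SB505124 inhibits the kinase of the type I TGFβ receptor. A TGFβ1 effect below is thus TGFβ1 against SB505124, and the parts of the stimulus and the block cannot be told apart. The 4 groups held 2 libraries each, 1 per line, and a group's spread is thus the difference between 2 tumors and not between repeat cultures.

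VEGF-A, VEGF-B and placental growth factor (encoded by *Pgf*) bind the receptor tyrosine kinase VEGFR1 (*Flt1*), and VEGF-A also binds VEGFR2 (*Kdr*), the receptor through which it drives the growth of blood vessels. VEGF-C is the main growth factor of lymphatic vessels and acts on VEGFR3 (*Flt4*) once its propeptides have been cut, a step in which CCBE1 assists the protease ADAMTS3. The neuropilins bind both VEGFs and class 3 semaphorins and pair with VEGF receptors or plexins. VEGF-A is also a classical product of hypoxic cells, through hypoxia-inducible factors (HIFs). In the TGFβ pathway, SMAD4 joins receptor-activated SMADs to regulate transcription.

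The promoter windows of the 4 ligands are shown because *Vegfa*, *Pgf* and *Vegfc* rose together and *Vegfb* did not. Each window runs 5′ to 3′ from 250 bases before to 50 bases after a RefSeq transcription start on GRCm38.p6, and capitals mark SMAD motifs on either strand (the SMAD box CAGAC or GTCTG, and the GC-rich site GGCGCC). They lie at chr17:46032328-46032627 (minus strand) for *Vegfa*, chr12:85177264-85177563 (minus strand) for *Pgf*, chr8:54077282-54077581 (plus strand) for *Vegfc* and chr19:6987602-6987901 (minus strand) for *Vegfb*. For *Vegfa* and *Pgf*, RefSeq lists 2 windows and the one farthest upstream was taken.
Vegfa: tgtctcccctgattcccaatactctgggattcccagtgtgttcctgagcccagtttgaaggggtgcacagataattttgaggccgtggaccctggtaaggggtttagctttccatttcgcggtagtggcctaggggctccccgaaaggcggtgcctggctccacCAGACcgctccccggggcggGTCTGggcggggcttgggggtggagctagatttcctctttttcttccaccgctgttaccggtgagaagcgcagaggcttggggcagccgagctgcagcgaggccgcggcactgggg
Pgf: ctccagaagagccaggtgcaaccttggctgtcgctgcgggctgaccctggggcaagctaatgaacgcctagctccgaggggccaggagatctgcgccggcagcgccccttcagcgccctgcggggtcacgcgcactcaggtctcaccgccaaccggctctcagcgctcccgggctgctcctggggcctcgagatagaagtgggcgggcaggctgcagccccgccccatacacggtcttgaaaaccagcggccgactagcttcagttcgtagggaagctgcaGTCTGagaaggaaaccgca
Vegfc: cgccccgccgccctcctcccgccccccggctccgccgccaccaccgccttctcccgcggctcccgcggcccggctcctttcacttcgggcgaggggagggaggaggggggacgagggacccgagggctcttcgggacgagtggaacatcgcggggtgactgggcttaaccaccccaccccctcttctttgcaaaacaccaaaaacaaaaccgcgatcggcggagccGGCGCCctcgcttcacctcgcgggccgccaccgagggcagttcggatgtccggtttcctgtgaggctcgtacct
Vegfb: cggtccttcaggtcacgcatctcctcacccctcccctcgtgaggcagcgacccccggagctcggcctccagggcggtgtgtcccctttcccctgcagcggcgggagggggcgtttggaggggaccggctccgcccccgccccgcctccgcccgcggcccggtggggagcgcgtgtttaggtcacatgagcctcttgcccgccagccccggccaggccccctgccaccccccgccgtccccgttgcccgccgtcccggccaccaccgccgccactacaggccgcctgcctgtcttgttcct
*Vegfa* held 2 SMAD boxes, at -86 and -66 from its start, the latter sharing 1 base with a GC box (GGGCGG or CCGCCC). *Pgf* held 1 at 32, within the transcript, and *Vegfc* held 1 GC-rich site at -24. *Vegfb* held neither. The SMAD box occurs in 49.6% of the 32851 windows of the same length, the GC-rich site in 11.9% and the GC box in 35.7%, so matches of this kind are common. Of the neuropilins, whose windows are not shown, *Nrp1* held 1 SMAD box at 24 and no GC-rich site, and *Nrp2* held neither. GC boxes were present in all 6 members with a window used here, *Nrp1* and *Nrp2* included. The ACGTG form of the hypoxia response core (ACGTG or CACGT, 19.6% of windows, which is contained in the E-box CACGTG, 7.15%) was found in none of the 6. The GCGTG form (CACGC on the other strand) was not searched for, and it stands in the *Vegfb* and *Pgf* windows shown. Sequence outside the windows was not searched. The matches listed are of letters in short windows and not measured binding.

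Libraries held between 18389235 and 23440550 counts, at which 3 counts, taken as the floor of detection, equal 0.125 to 0.162 CPM (counts scaled to a common library size). *Smad4* mRNA checked the labels: upon Dox withdrawal its mean went from 34.3 to 106 CPM with SB505124, and with TGFβ1 from 35.1 to 116 CPM. Smad4 off thus denotes lowered *Smad4* mRNA and not its absence. Epithelial markers summed to between 1170 and 6183 CPM, but were not all high. *Epcam* had only 3 to 39 counts, and *Krt7* was at 474 to 649 CPM in B73 but 12.6 to 28.7 CPM in B87. Of 10 endothelial markers, 6 were at or under the floor in every library, but *Cdh5* (VE-cadherin) moved with TGFβ1. In the order Smad4 off and on under SB505124, then off and on under TGFβ1, it had 2, 3, 23 and 54 counts in B73 and 0, 4, 16 and 40 counts in B87. The summed endothelial level was accordingly highest in Smad4-on TGFβ1 libraries, at 2.40 to 3.22 CPM, while *Pecam1*, *Emcn* and *Cldn5* had at most 5, 0 and 0 counts in any library. Of the epithelial markers, *Cdh1* and *Krt19* were at their lowest in the same condition in both lines, while *Krt8* and *Krt18* were at their highest there in B73. Summed fibroblast markers ran from 3.27 to 49.96 CPM and were higher in B87 in every condition. Of these 6 markers, 3 (*Dcn*, *Lum* and *Thy1*) were at or under the floor in every library. The sum thus rests on *Pdgfra*, *Pdgfrb* and *Pdpn*. The part of such shifts in the results was not tested, and in bulk libraries a change in the share of cells and a change of RNA per cell cannot be told apart.

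The question was how the *Smad4* state and TGFβ signaling set the level of each gene. *Smad4* restoration under TGFβ1 raised *Vegfa*, *Vegfc*, *Pgf* and *Ccbe1* by 2.31- to 4.31-fold, and TGFβ1 raised these 4 genes in Smad4-on cells by between 4.48-fold (*Vegfc*) and 43.2-fold (*Ccbe1*). A gene was called when its edgeR adjusted p over all tested genes was under 0.05 and its change exceeded 2-fold. By that rule, 4 of the 7 members were called higher and none lower for *Smad4* under TGFβ1, where 1.31% of tested genes were called higher and 1.8% lower. For TGFβ1 in Smad4-on cells, 5 were called higher and 1 lower (background 5.62% and 8.31%). In Smad4-off cells, TGFβ1 gave 3 called higher and none lower (background 3.11% and 2.82%). Under SB505124, edgeR called 0 of the 7 for *Smad4*, with 3 at an unadjusted p under 0.05 (background 1.09% either way), whereas DESeq2 with the line called *Ccbe1*. Since the members were picked on these same contrasts, nothing is read from such counts or from the medians that follow. Median log2 fold changes of the members were 1.21, 2.16, 0.84 and 0.25 in that order, beside -0.01, -0.02, -0.02 and 0.0028 over all tested genes. With no replicate block, edgeR called only *Vegfa* for *Smad4* under TGFβ1. The 4 contrasts share libraries and are not independent of each other.

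**Figure D1:**
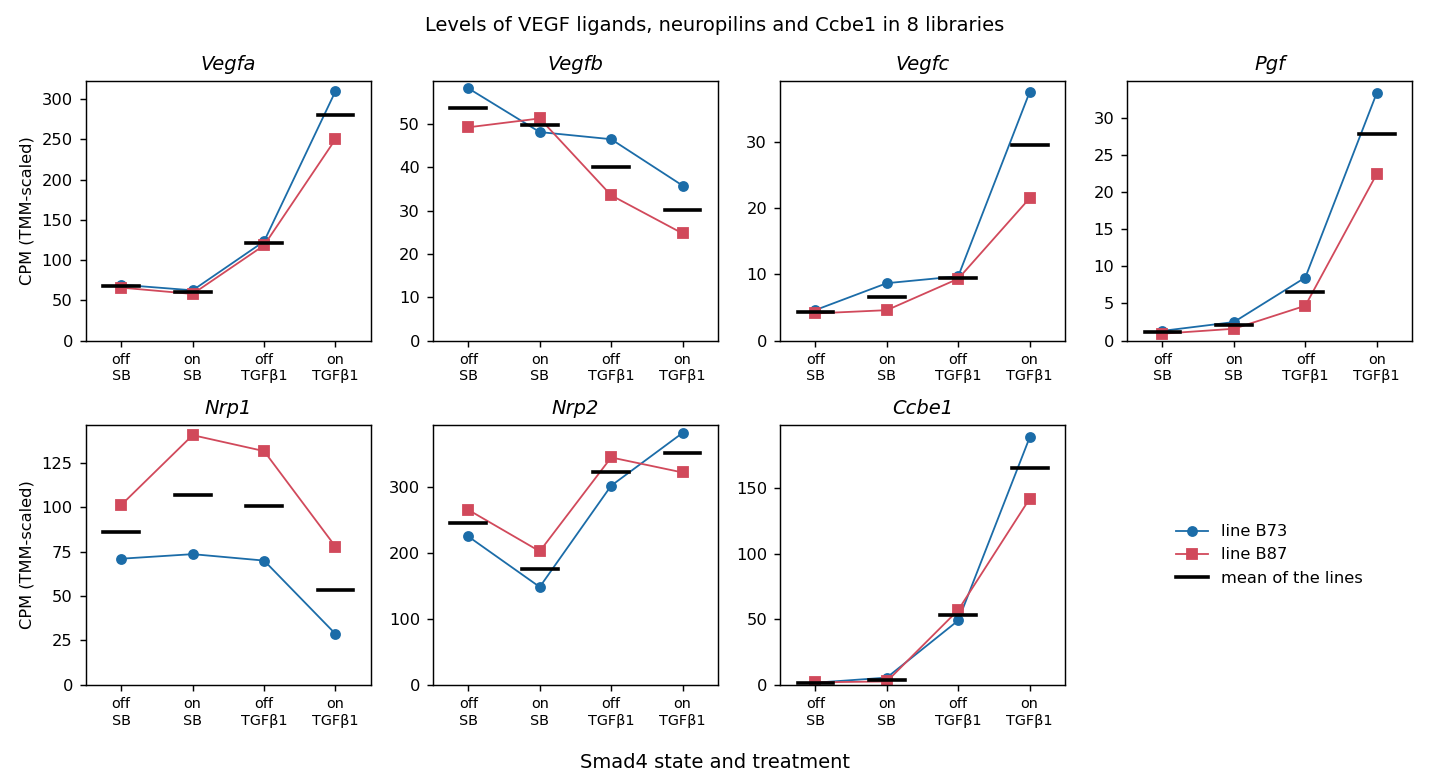
CPM of each gene in the 8 libraries (points, joined within a line; circles B73, squares B87) by Smad4 state (off, on) and treatment (SB, SB505124), with the mean of the 2 lines as a bar. *Vegfa*, *Vegfc*, *Pgf* and *Ccbe1* were highest in Smad4-on cells under TGFβ1 in both lines, *Nrp1* was lowest there in B73 (28.6 CPM) and B87 (77.9 CPM), and *Vegfb* was lowest there in both.

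*Vegfa* (chromosome 17, 46016993 to 46032369, minus strand, GRCm38) encodes the principal angiogenic VEGF. In B73 it was at 69.4 CPM in Smad4-off and 62.4 CPM in Smad4-on cells under SB505124, and at 123 and 310.1 CPM under TGFβ1. In B87 the levels in the same order were 65.8, 57.9, 118 and 250.4 CPM. The lines were close in every condition, no 2 groups overlapped, and the order of groups was the same in both. TGFβ1 raised *Vegfa* by a log2 fold change of 2.22 ± 0.093 (SE) with *Smad4* and 0.84 ± 0.090 without it, the latter passing the adjusted p but not the 2-fold threshold. *Smad4* restoration raised it by 1.21 ± 0.089 under TGFβ1 (1.33 in B73, 1.08 in B87), while under SB505124 the difference was -0.17 ± 0.090. The *Smad4* effect was therefore larger under TGFβ1 by 1.38 ± 0.13 on the log2 scale (1.48 in B73, 1.26 in B87). In the edgeR fit, *Vegfa* was the only one of the 7 whose difference of effects passed both thresholds, a term called for 0.189% of tested genes. That call was lost in 7 of the 8 fits that left out a library and stood without the B87 Smad4-on TGFβ1 library, and with no replicate block edgeR did not make it.

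*Pgf* (chromosome 12, 85166635 to 85177790, minus strand) encodes placental growth factor, which is abundant in placenta and low in most adult tissues. Under SB505124 it was scarce, at 1.30 and 2.49 CPM in B73 and 0.923 and 1.58 CPM in B87 (Smad4 off and on), or 21 to 46 counts. Under TGFβ1 it reached 8.48 and 33.3 CPM in B73 and 4.68 and 22.4 CPM in B87. Within each line the 4 conditions kept that order, and the groups did not overlap. Its *Smad4* effect under TGFβ1 was the largest of the 7, at 2.11 ± 0.16 (1.96 in B73, 2.24 in B87), beside 0.86 ± 0.21 under SB505124. TGFβ1 raised it by 2.54 ± 0.19 in Smad4-off cells and 3.78 ± 0.18 in Smad4-on cells. The difference between the *Smad4* effects was 1.25 ± 0.27 and was not called.

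*Vegfc* (chromosome 8, 54077606 to 54187096, plus strand), the lymphatic growth factor, was at 4.59 and 8.65 CPM under SB505124 and 9.68 and 37.5 CPM under TGFβ1 in B73. In B87 it was at 4.09 and 4.58 CPM, then 9.32 and 21.5 CPM. The Smad4-off libraries of the lines lay close together in both treatments, whereas the Smad4-on libraries of B73 stood well above those of B87. *Smad4* restoration under TGFβ1 raised *Vegfc* by 1.58 ± 0.24, with 1.94 in B73 and 1.20 in B87. Under SB505124 the difference was 0.55 ± 0.26 and the 2 groups overlapped. TGFβ1 raised it by 1.13 ± 0.25 in Smad4-off cells and 2.16 ± 0.24 in Smad4-on cells, a difference of 1.03 ± 0.35 that was not called.

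*Vegfb* (chromosome 19, 6982473 to 6987651, minus strand) encodes a VEGFR1 ligand with little angiogenic activity of its own and was lowest where the other ligands were highest. In B73 it was at 58.3 and 48.1 CPM under SB505124 and at 46.5 and 35.8 CPM under TGFβ1. In B87 it was at 49.2 and 51.3 CPM and then 33.5 and 24.7 CPM. Smad4-on TGFβ1 libraries were the lowest of each line, and neighbouring groups overlapped except between treatments. TGFβ1 lowered *Vegfb* by 0.75 ± 0.16 on the log2 scale in Smad4-on cells, which passed the adjusted p but not the 2-fold threshold. In Smad4-off cells the difference was -0.44 ± 0.16. Its *Smad4* differences were -0.41 ± 0.16 under TGFβ1 and -0.10 ± 0.15 under SB505124, and neither passed.

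**Figure D2:**
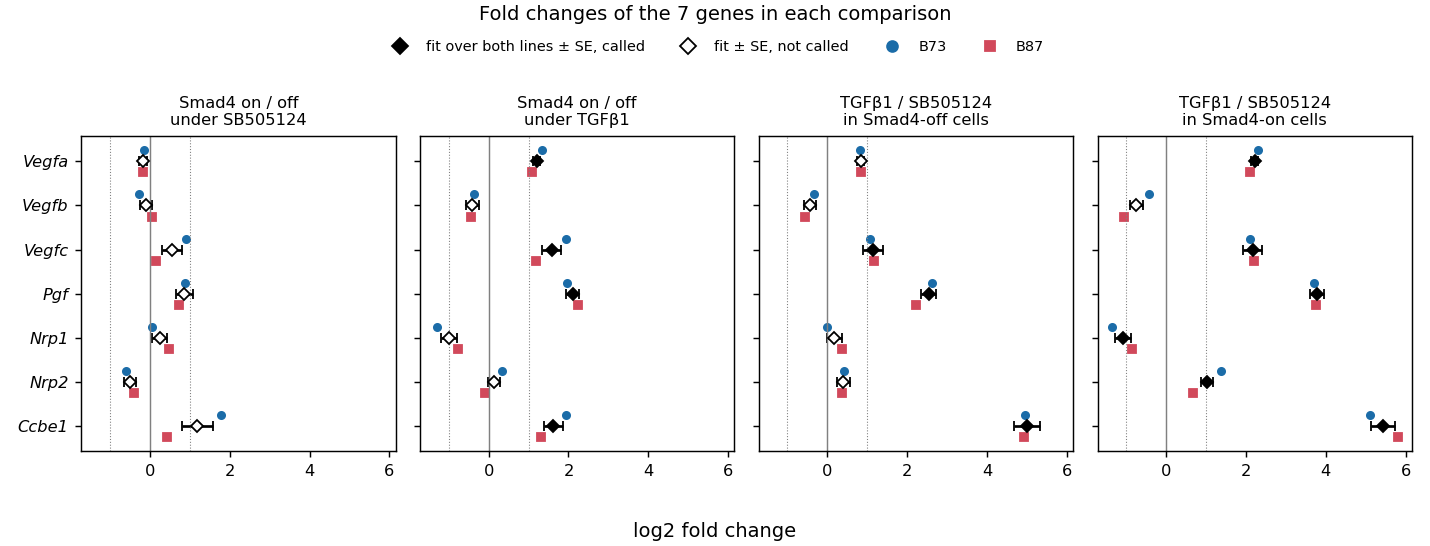
Log2 fold changes of the 7 genes in 4 comparisons (diamonds, edgeR fit over both lines ± SE, filled where called; circles B73 and squares B87, from log2 CPM; dotted lines, 2-fold). *Ccbe1* rose by 5.00 and 5.43 with TGFβ1 in Smad4-off and Smad4-on cells, while *Vegfb* stayed left of 0 in all 4 fits.

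Per length, the make-up of the ligand mRNA differed between treatments, and its amount was highest in Smad4-on cells under TGFβ1. In CPM per kilobase of exon (RPKM), the 4 ligands summed to between 47.9 and 54.8 in the 4 SB505124 libraries. *Vegfb* made up 61.3% to 66.7% of that sum and *Vegfa* 28.2% to 32.0%. In Smad4-off cells under TGFβ1 the sum was 64.6 RPKM in B73 and 53.9 RPKM in B87, the latter within the SB505124 range. The *Vegfa* share was 44.5% and 51.2% there, and the *Vegfb* share 44.8% and 38.7%. In Smad4-on cells under TGFβ1 it was 121 RPKM in B73 and 90.3 RPKM in B87. There *Vegfa* made up 59.6% and 64.7%, and *Vegfb* 18.4% and 17.1%. *Pgf* was at most 1.75% of the sum under SB505124 and 9.45% and 8.56% in Smad4-on TGFβ1 libraries, and the *Vegfc* share there was 12.6% and 9.70%. Between SB505124 and Smad4-on TGFβ1 libraries, a switch from a *Vegfb*-led to a *Vegfa*-led mixture was thus seen in both lines. With Smad4 off under TGFβ1, *Vegfa* already led in B87, while in B73 the shares of *Vegfa* and *Vegfb* were nearly equal. Protein was not measured.

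**Figure D3:**
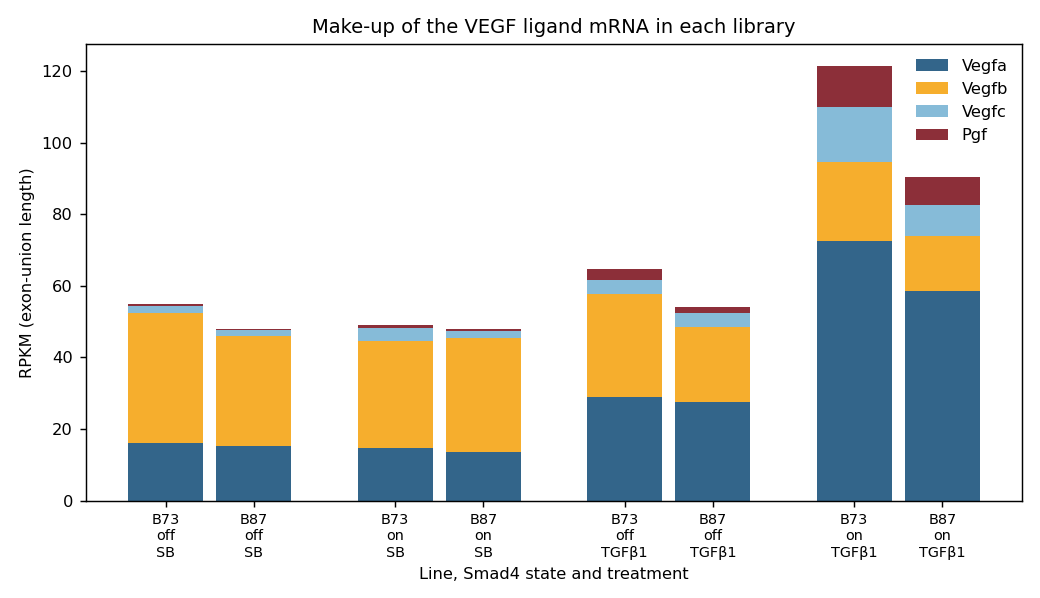
Stacked RPKM of the 4 VEGF ligands in each library (bars from 0; x axis, line, Smad4 state and treatment). *Vegfb* led in the SB505124 libraries and *Vegfa* in the Smad4-on TGFβ1 libraries, where the sum was 121 (B73) and 90.3 RPKM (B87). With Smad4 off under TGFβ1, *Vegfa* led in B87, while in B73 its share was close to that of *Vegfb*.

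*Ccbe1* (chromosome 18, 66045302 to 66302739, minus strand) encodes the secreted cofactor of VEGF-C processing and had the widest range of the 7. Under SB505124 it was at 1.497 and 5.40 CPM in B73 and 1.80 and 2.45 CPM in B87 (Smad4 off and on). Under TGFβ1 it reached 48.98 and 189 CPM in B73 and 56.9 and 142 CPM in B87. TGFβ1 libraries lay far above SB505124 libraries in either *Smad4* state, and Smad4-on above Smad4-off libraries in each line. TGFβ1 raised *Ccbe1* by 5.00 ± 0.33 on the log2 scale (32.0-fold) in Smad4-off cells and by 5.43 ± 0.30 (43.2-fold) in Smad4-on cells. *Smad4* restoration raised it by 1.62 ± 0.24 under TGFβ1. Under SB505124 the difference was 1.19 ± 0.38 and was uneven, at 1.79 in B73 and 0.43 in B87, from 30 and 41 counts in the Smad4-off libraries. The *Smad4* effects under the 2 treatments differed by 0.43 ± 0.46. Of its exon bases, 320 (2.95%) overlap the antisense gene *Gm15958*, whose reads could not be told apart if strand was not used in counting. *Adamts3*, which encodes the protease CCBE1 assists, had at most 2 counts in any library (a gene looked up after its values were seen). Of the 6 tested genes for VEGF-C-processing enzymes, edgeR called *Furin* higher with TGFβ1 in Smad4-on cells (log2 fold change 1.33 ± 0.093, adjusted p 0.000181). In that contrast 5.62% of tested genes were called higher.

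*Nrp1* (chromosome 8, 128358604 to 128503363, plus strand) and *Nrp2* (chromosome 1, 62703285 to 62818695, plus strand) responded differently from each other. *Nrp1* was at 71.1, 73.7 and 70.0 CPM in the first 3 conditions in B73 (Smad4 off and on under SB505124, Smad4 off under TGFβ1) and at 28.6 CPM in Smad4-on cells under TGFβ1. In B87 it was at 101, 141 and 132 CPM and then 77.9 CPM. The lines differed more than most conditions did, so group ranges overlapped, yet the Smad4-on TGFβ1 library was the lowest of each line. Within lines, TGFβ1 lowered *Nrp1* in Smad4-on cells by 1.08 ± 0.19 on the log2 scale (-1.36 in B73, -0.85 in B87), which was called but not without the B73 Smad4-on TGFβ1 library. In Smad4-off cells the difference was 0.17 ± 0.19, with -0.02 in B73 and 0.38 in B87. The *Smad4* difference was -0.99 ± 0.19 under TGFβ1, which passed the adjusted p but fell short of 2-fold (1.99-fold), and 0.25 ± 0.19 under SB505124. These differed by -1.25 ± 0.27, not called by edgeR and called by DESeq2 with the line.

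*Nrp2* was at 225 and 148 CPM under SB505124 and 302 and 382 CPM under TGFβ1 in B73, and at 265, 202, 345 and 322 CPM in B87. The lowest library of each line was thus Smad4 on under SB505124, and the *Smad4* difference had opposite signs in the lines under TGFβ1, at 0.34 in B73 and -0.10 in B87. TGFβ1 raised *Nrp2* in Smad4-on cells by 1.02 ± 0.16, which was called, although B87 alone changed by 0.67 and the fit dropped below 2-fold, to 0.84 or 0.74, without the B73 Smad4-on library under SB505124 or TGFβ1. In Smad4-off cells the difference was 0.40 ± 0.15. *Smad4* differences were 0.13 ± 0.15 under TGFβ1 and -0.49 ± 0.15 under SB505124 and were not called. Per length, *Nrp2* exceeded *Nrp1* in all 8 libraries. The ratio of their RPKM was 2.61, 1.66, 3.56 and 11.02 in B73 and 2.16, 1.19, 2.16 and 3.41 in B87, in the order of conditions used above. It was highest in Smad4-on cells under TGFβ1 in both lines. When the longest transcript replaced the union of exons as the length (3645 in place of 9785 bases for *Nrp1*), *Nrp1* was the higher of the pair in the B87 Smad4-on SB505124 library, at 38.6 against 30.1 RPKM.

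The receptors for these ligands, and *Vegfd*, which encodes the other lymphatic VEGF, were also measured. *Kdr* (VEGFR2) moved opposite to *Vegfa* with *Smad4* under TGFβ1. It was at 1.95, 0.378, 6.04 and 0.510 CPM in B73 and at 5.01, 2.50, 25.2 and 2.6 CPM in B87 (Smad4 off and on under SB505124, then under TGFβ1). The Smad4-off TGFβ1 library was the highest of each line. *Smad4* restoration under TGFβ1 changed it by a log2 fold change of -3.35 ± 0.31 (adjusted p 0.00289 in edgeR), and TGFβ1 raised it in Smad4-off cells by 2.02 ± 0.28 (adjusted p 0.00615), a call lost without the B87 Smad4-off TGFβ1 library. The difference of its *Smad4* effects between treatments, -1.89 ± 0.45, did not pass (adjusted p 0.22). *Vegfd*, never above 3.99 CPM, fell by 1.27 ± 0.29 with *Smad4* under TGFβ1 (adjusted p 0.0475) and by 1.49 ± 0.29 with TGFβ1 in Smad4-on cells (adjusted p 0.00809). The first of these calls was lost in each of the 8 fits that left out a library, in DESeq2 and in edgeR with no replicate block, and the second without the B87 Smad4-on TGFβ1 library.

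*Flt1* (VEGFR1) and *Flt4* (VEGFR3) were called in none of the 4 condition contrasts. *Flt1* was between 58.4 and 79.1 CPM in B73 and between 33.8 and 69.0 CPM in B87, ranges that overlap, and was not called between lines (adjusted p 0.0749). Under TGFβ1 it was at 68.2 CPM in Smad4-off and 58.4 CPM in Smad4-on cells of B73, but at 39.95 and 69.0 CPM in those of B87. *Flt4* was between 10.6 and 11.1 CPM in B73, whereas in B87 it was at 41.9 and 45.5 CPM in Smad4-off cells and 18.5 and 24.4 CPM in Smad4-on cells (SB505124 and TGFβ1). Thus all 3 receptor mRNAs were detected in cells where most endothelial markers were at or under the floor.

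**Figure D4:**
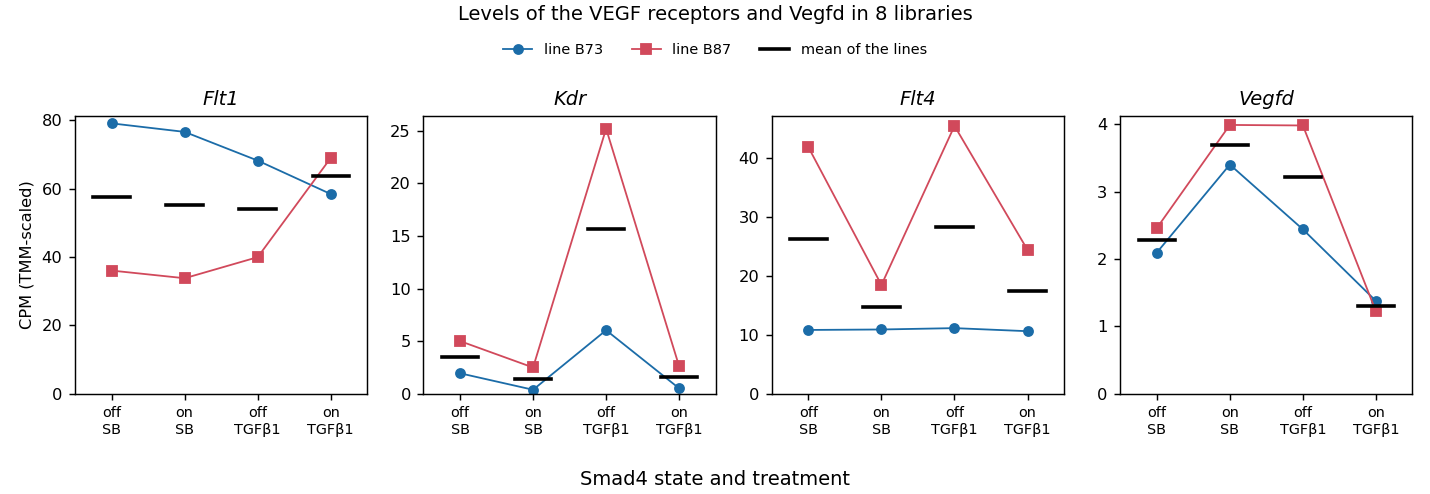
CPM of the VEGF receptors *Flt1*, *Kdr* and *Flt4* and of *Vegfd* in the 8 libraries (points, joined within a line; bar, mean of the 2 lines) by Smad4 state and treatment. *Kdr* peaked in Smad4-off cells under TGFβ1 in both lines (6.04 and 25.2 CPM), and *Flt4* was flat in B73.

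Other genes of the pathway were counted in a list of 55, of which 50 were tested. With *Smad4* under TGFβ1, 5 rose and 5 fell (3.12% of all tested genes were called), and the list's median log2 fold change was 0.02. Those that rose were *Plxna4* (a plexin), *Ndrg1* (a hypoxia-responsive gene), *Fgf2* and *Edn1* (a fibroblast growth factor and the endothelin-1 precursor) and *Cxcl12*. Those that fell were *Kdr*, *Vegfd*, *Epas1* (HIF-2α), *Egln3* (a HIF prolyl hydroxylase) and *Angptl4*. *Cxcl12* and *Egln3* are named after their values were seen, and *Cxcl12* had 0 counts in all 4 B87 libraries, so that its change is that of B73. *Angptl4*, an angiopoietin-like factor, fell most, in B73 from 222 to 17.7 CPM and in B87 from 280.5 to 8.21 CPM (log2 fold change -4.38 ± 0.52, adjusted p 0.00652). It was also the only gene of the list called under SB505124 (-2.87 ± 0.50, adjusted p 0.0474), and not without either Smad4-off SB505124 library, the B87 Smad4-on SB505124 library or either Smad4-on TGFβ1 library. *Fgf2* rose, in B73 from 4.97 to 19.7 CPM and in B87 from 44.0 to 96.7 CPM (1.498 ± 0.29, adjusted p 0.0312). The calls of *Fgf2* and *Edn1* were lost without any 1 of the 4 TGFβ1 libraries. The *Edn1* call was also lost without the B73 Smad4-off SB505124 library. The call of *Epas1* was lost without either Smad4-off or the B87 Smad4-on TGFβ1 library. That of *Egln3* was lost without the B87 Smad4-off TGFβ1 library and that of *Cxcl12* without either Smad4-off or the B73 Smad4-on TGFβ1 library. With no replicate block edgeR kept only *Ndrg1*.

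A list of 8 hypoxia-responsive genes was examined beside *Vegfa*, which belongs to the same class. Of the 8 tested, 1 (*Ndrg1*) was called higher and none lower with *Smad4* under TGFβ1 (background 1.31% and 1.8%), with a list median of 0.64. The fold change was positive for 6. Means of *Adm* (0.75 to 0.28 CPM) and *Car9* (1.13 to 0.64 CPM), both low and named after their values were seen, fell. The list does not hold every such gene: *Egln3* and *Angptl4*, placed in other lists, were called lower in that contrast. *Ndrg1* was at 66.9, 74.7, 58.96 and 167 CPM in B73 and at 76.0, 93.4, 71.7 and 167 CPM in B87 in the same order of conditions. It rose by 1.36 ± 0.099 with *Smad4* under TGFβ1 (adjusted p 0.0014). The difference of its *Smad4* effects, 1.13 ± 0.14 (adjusted p 0.047), was the only such term called among the 50, and no fit that left out a library made that call. With TGFβ1 in Smad4-on cells, 3 of the 8 were called higher and none lower (background 5.62% and 8.31%), with a median of 1.14. Those called were *Ankrd37*, *Bnip3* and *P4ha1*, named after their values were seen. Of the 8 regulators of HIF, *Epas1* and *Egln3* were called lower in both of these contrasts (background 1.8% and 8.31% lower) and none was called higher. *Epas1* was low throughout, at 2.79 and 1.02 CPM in B73 and 2.44 and 0.459 CPM in B87 in Smad4-off and Smad4-on cells under TGFβ1.

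Against SB505124, TGFβ1 moved 21 of the 50 genes in Smad4-on cells (13 higher, 8 lower). It moved 11 in Smad4-off cells (9 higher, 2 lower). Of all tested genes, 13.9% and 5.93% were called in these contrasts. In the list of angiogenesis inhibitors, which also holds *Vash2*, known to promote angiogenesis, 4 of 5 tested were called higher in Smad4-on cells (*Thbs1*, *Col18a1*, *Vash1* and *Vash2*) and 2 in Smad4-off cells (*Thbs1* and *Vash1*), and none lower. The vasohibins *Vash1* and *Vash2* are named after their values were seen. *Thbs1* (thrombospondin-1, an inhibitor of angiogenesis) went in Smad4-on cells of B73 from 189.9 to 2594 CPM and in those of B87 from 136 to 4517 CPM (log2 fold change 4.45 ± 0.43, adjusted p 0.000574). *Col18a1*, whose product is cleaved to endostatin, rose by 1.16 ± 0.17 there (adjusted p 0.00307), a call lost without the B73 Smad4-on TGFβ1 library. *Edn1* rose by 4.81 ± 0.39 in Smad4-on cells (adjusted p 0.000282) and 4.40 ± 0.43 in Smad4-off cells (adjusted p 0.00181). *Fgf1* fell by 5.22 ± 0.78 in Smad4-on cells, where B73 went from 26.9 to 0.357 CPM and B87 from 3.79 to 0.306 CPM (adjusted p 0.00298). Among neuropilin partners, *Plxna4* rose by 4.09 ± 0.46 in Smad4-on cells (adjusted p 0.000965), with B73 going from 2.38 to 43.1 CPM and B87 from 1.37 to 21.3 CPM. Of the 6 tested class 3 semaphorins, the other ligands of the neuropilins, 2 were called lower in that contrast (*Sema3b* and *Sema3e*, named after their values were seen; background 8.31%) and none higher, with a median of -0.82. With *Smad4* under TGFβ1, no semaphorin was called by edgeR (2 at an unadjusted p under 0.05), as with DESeq2 with the line.

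**Figure D5:**
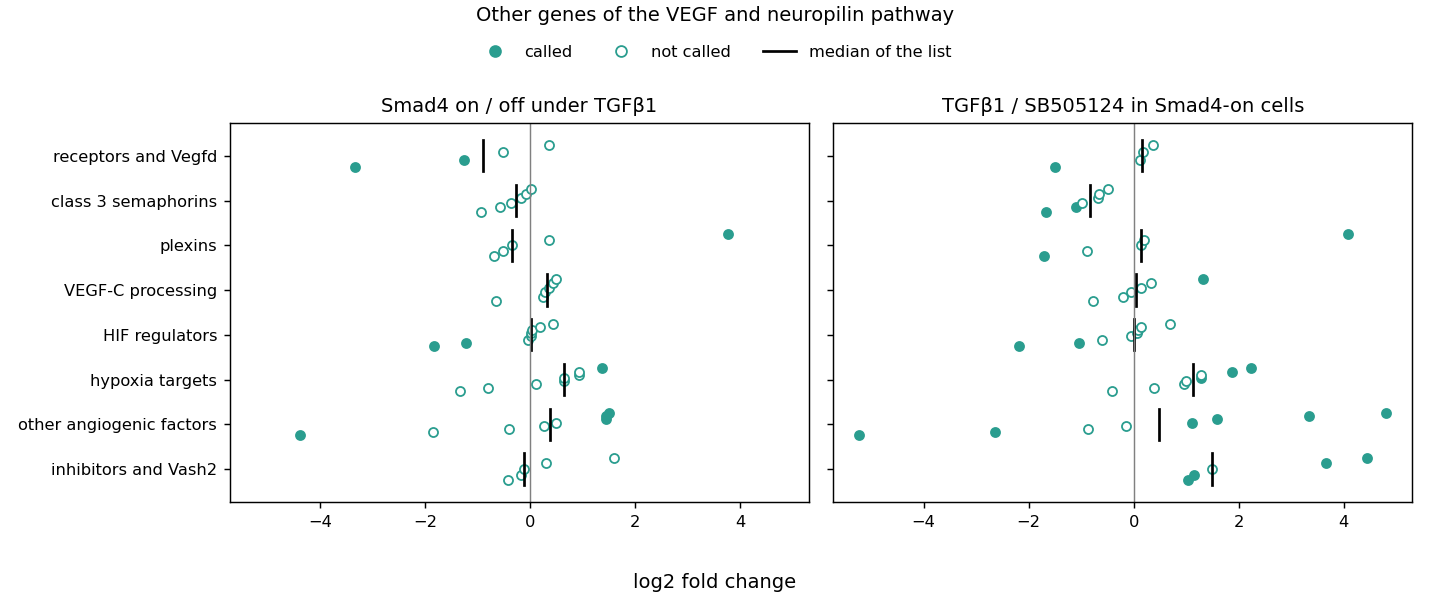
Log2 fold changes (x axis) of the 50 tested pathway genes in 8 lists for *Smad4* under TGFβ1 (left) and for TGFβ1 in Smad4-on cells (right); points are genes, filled where called, and bars are list medians. Hypoxia targets had medians of 0.64 and 1.14, and class 3 semaphorins of -0.27 and -0.82.

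Between the lines, edgeR called none of the 7 members (8.37% of tested genes were called either way), with 4 at an unadjusted p under 0.05, and DESeq2 with the line also called 0. *Nrp1* was nearest, higher in B87 by 0.94 ± 0.13 on the log2 scale and in all 4 conditions (0.51 to 1.44). *Pgf* was lower in B87 by 0.66 ± 0.12, also in all 4. *Vegfa* differed by -0.14 ± 0.063. Of the 8 hypoxia targets tested, 3 were called higher in B87 and none lower, with a median of 0.84. The pathway list had 10 called genes here, among them *Kdr* (1.998 ± 0.22 higher in B87, adjusted p 0.00146), *Flt4* (1.499 ± 0.22 higher, adjusted p 0.00437), *Fgf2* (2.62 ± 0.24 higher, adjusted p 0.000623) and *Fgf1* (log2 fold change -2.06 ± 0.48, adjusted p 0.0264, not called without any 1 of the 4 SB505124 libraries). Whether the TGFβ1 effect differed between lines was tested as a term of its own, and edgeR called no gene at all (0%, with 1198 of the tested genes at an unadjusted p under 0.05). Of the 50 pathway genes, 6 were at that level, and DESeq2 with the line called 2 of them (*Fgf1* and *Thbs1*). Among the members 1 had an unadjusted p under 0.05 for this term and DESeq2 with the line called 0.

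The members were compared with one another over the 8 libraries, as a description of levels that share libraries and conditions. *Vegfa*, *Vegfc*, *Pgf* and *Ccbe1* ran together, with Pearson r of log2 CPM from 0.91 (*Vegfc* and *Ccbe1*) to 0.97 (*Vegfc* and *Pgf*). *Vegfb* ran against *Vegfa* (r = -0.81) and *Ccbe1* (r = -0.84). *Nrp1* and *Nrp2* were related weakly (r = -0.32). Among 11099 other tested genes (mean log2 CPM 1 or more), those with the pattern most like each member over the 8 libraries were *Qk* (r = 0.99) and *Mark3* (r = 0.99) for *Vegfa*, *Phlda1* (r = 0.997) and *Klf6* (r = 0.99) for *Vegfc*, and *Arf1* (r = 0.995) and *Cttn* (r = 0.99) for *Pgf*. For *Ccbe1* they were *Gm14005* (r = 0.99) and *Adamts6* (r = 0.99), and for *Vegfb* *Mastl* (r = 0.995) and *Hnrnpul1* (r = 0.99). For *Nrp1* they were *Fbxo31* (r = 0.96) and *Rpn2* (r = 0.96), and for *Nrp2* *Cbll1* (r = 0.99) and *Ubtd2* (r = 0.98).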

How the data were processed

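RNA-seq libraries of 8 samples were analysed from the table of raw counts deposited by the authors, who trimmed 75-base single-end reads with Trimmomatic 0.36, aligned them with STAR 2.5.3a to GRCm38 and counted them per gene with featureCounts 1.6.3, as their processing notes and methods state. Libraries were stranded and poly(A)-selected. Settings for strand and for reads aligning to several genes are not given in the sources used here. All count columns matched a sample (0 left over). Groups and lines were taken from the sample titles. A further feature of the mouse model, shared by every group, is not reported here.

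Counts were tested with edgeR 4.0.16 in R 4.3.3 (TMM, filterByExpr, quasi-likelihood F-test) in a single model of the 4 groups plus the line, with Benjamini-Hochberg adjustment over 14301 genes and the study's thresholds (adjusted p under 0.05, over 2-fold). The study used DESeq2 and names no covariate. Pairing by line comes from the titles, and deviations from group means correlated at r = 0.64 to 0.77 over 6 pairs of groups. SE was taken as the absolute log2 fold change over the root of the F statistic. CPM are TMM-scaled, values per line use a prior count of 2, RPKM use the union of GENCODE exons, and floors cover counting error only. Each line was grown from a single tumor, and the model removes a constant difference between lines. The p-values are measured against what remains, which is uneven change between lines and noise of single libraries. Promoter windows are RefSeq's.

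The members and lists were chosen with earlier results of these data known. Named genes were the members, *Smad4*, the receptors and *Vegfd*, and per comparison at most 5 called pathway genes of largest change, with the same sign in both lines and a mean log2 CPM no lower than 1, plus the 2 genes most like each member. Scripts were tested on simulated data. Alternatives were DESeq2 1.42.0 with and without the line, DESeq2 size factors, edgeR without the line, 2 other filters, no fold rule, a test against 2-fold (glmTreat from edgeR), the compared libraries alone, another gene length and leaving out each library.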

Additional observations from a re-analysis of the deposited data

Results flagged for a closer look

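For *Ndrg1* a test of the difference between treatments passed (log2 difference 1.13, TGFβ1 minus SB505124, adjusted p 0.047 in edgeR), but in no fit that left out a library. For *Vegfa* the same difference was 1.38, which is a description only, because the gene was chosen with these values known. It too passed the thresholds in the edgeR fit, in 1 of the 8 fits that left out a library and not in edgeR with no replicate block.

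In the other cases the 2 lines moved in opposite directions under one contrast. With 1 library per line and condition, each such difference was not tested by itself. The term for the TGFβ1 effect by line, averaged over Smad4 states, was called for none of these genes. It bears only on the TGFβ1 contrasts, and no such term was fitted for the *Smad4* contrasts. Values are the log2 fold change in B87 minus that in B73. For *Smad4* under TGFβ1 they were -0.44 for *Nrp2* and 1.01 for *Flt1*. For *Smad4* under SB505124 they were 0.33 for *Vegfb* and -1.19 for *Flt4*. For TGFβ1 in Smad4-off cells they were 0.40 for *Nrp1* and 0.36 for *Flt1*. For TGFβ1 in Smad4-on cells they were 1.42 for *Flt1* and 0.44 for *Flt4*.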

How the results depend on the processing

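Of 777 refitted fold changes of the members, 769 kept their sign, and the 8 that did not were in 5 results, none of them called. Numbers of called genes depended more on the settings (135 within 1.5 times the count given and 67 outside). Leaving out the line and testing against 2-fold moved many of them. With no replicate block, edgeR called 1 member (*Vegfa*) in place of 4 for *Smad4* under TGFβ1, 5 for TGFβ1 in Smad4-on cells (6 with it; *Nrp1* was lost), 2 in Smad4-off cells (3 with it; *Vegfc* was lost, as it was without either Smad4-off SB505124 library or the B87 Smad4-off TGFβ1 library) and 0 in the interaction (1 with it). Of pathway genes it then called 1 in place of 10, 0 in place of 1 under SB505124, 4 in place of 11 for TGFβ1 in Smad4-off cells and 0 in place of 1 in the interaction. DESeq2 with no replicate block called 4 members and 6 pathway genes for *Smad4* under TGFβ1, 2 pathway genes under SB505124 and 7 for TGFβ1 in Smad4-off cells. DESeq2 with the line called 1 member and 3 pathway genes under SB505124, 2 and 2 in the interaction (*Nrp1* and *Egln3* were added) and 2 pathway genes for the TGFβ1 effect by line. Without a filter on low counts, these were 1 and 5, 2 and 8, and 2. With at least 10 counts in every library, pathway counts were 6 (*Smad4* under TGFβ1), 0 (under SB505124), 6 (TGFβ1 in Smad4-off cells) and 4 (lines). Without the fold rule, they were 20 for TGFβ1 in Smad4-off cells and 18 between lines, where 2 members passed (*Nrp1* and *Pgf*). The test against 2-fold called 1 member (*Pgf*) and 3 pathway genes for *Smad4* under TGFβ1, 0 pathway genes under SB505124, 4 members and 13 pathway genes for TGFβ1 in Smad4-on cells, 3 pathway genes in Smad4-off cells, 0 members and 0 pathway genes in the interaction and 5 pathway genes between lines. DESeq2 size factors gave 2 pathway genes under SB505124, and the 4 compared libraries alone gave 0. The causes were not tested.

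Leaving out each library in turn, with the lone library left in its group assumed to vary like the others, gave 2 to 5 members for *Smad4* under TGFβ1. *Vegfc* and *Ccbe1* were lost, leaving 2, without the B73 Smad4-off or the B73 Smad4-on TGFβ1 library. The ranges were 4 to 6 members for TGFβ1 in Smad4-on cells, 2 to 3 in Smad4-off cells, 0 to 1 in the interaction and 0 to 1 between lines. For pathway genes they were 4 to 10 (*Smad4* under TGFβ1, lowest without the B87 Smad4-off TGFβ1 library), 0 to 2 (under SB505124), 17 to 22 and 6 to 12 (TGFβ1 in Smad4-on and Smad4-off cells), 0 in the interaction and 7 to 10 between lines. For genes that are no member, 93 refitted values lost their call, 58 gained one and 2653 kept their side. With 2 libraries per group, and *Pgf*, *Ccbe1* and *Vegfc* at 21 to 160 counts under SB505124, differences there are the least certain.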
